A study of Mus musculus with 12 samples.

Results

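The constitutive proteasome subunit genes were the protein-coding genes whose GRCm38 symbol starts with Psma, Psmb, Psmc, Psmd, Psme, Psmf or Psmg followed by a digit. Psmb8, Psmb9 and Psmb10, which encode the 3 catalytic subunits of the immunoproteasome, were left out. The rule used names and no measured value, and found 47 genes among the 54119 genes counted, of which 21806 were protein-coding. All 47 passed the filter on low counts and were among the 19150 genes tested. RNA was sequenced from cerebral vessels that had been purified from the forebrain of wild type C57BL6 mice aged 2 to 3 months. Mice received either PBS or 10 mg/kg lipopolysaccharide (LPS), the bacterial cell wall component used here to set off systemic inflammation, by intraperitoneal injection. There were 4 groups of 3 libraries: PBS, and vessels collected 15 min, 30 min or 4 h after LPS, which are named by that time here. Each library pooled the vessels of 1 male and 1 female mouse, so a group held 6 mice and the sexes could not be separated. The time between the PBS injection and the collection of vessels is not given in the sources used here. The vessel preparation is a mixture of endothelial cells, mural cells and the cells attached to them, so fewer cells of a type and less RNA per cell cannot be told apart.

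The proteasome is the barrel-shaped protease that degrades proteins tagged with ubiquitin. Its 20S core is a stack of outer alpha rings, which gate the entrance, and inner beta rings, which hold the proteolytic sites of Psmb5, Psmb6 and Psmb7. The 19S cap carries a ring of ATPases (Psmc genes) that unfolds substrates and a set of non-ATPase subunits (Psmd genes) that bind and remove ubiquitin. Alternative caps replace or accompany the 19S cap: Psme1 and Psme2 form PA28, which favours the release of peptides for MHC class I presentation and is known as interferon-inducible, Psme3 forms the nuclear PA28 gamma cap and Psme4 encodes PA200. Dedicated chaperones, among them the Psmg genes for the 20S core and Psmd5, Psmd9 and Psmd10 for the 19S base, help assembly and leave the finished particle. In inflammation the constitutive catalytic subunits can be exchanged for Psmb8, Psmb9 and Psmb10.

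By role, the 47 genes comprised 8 alpha ring genes, 8 beta ring genes, 6 ATPases of the 19S cap, 11 non-ATPase subunits, 6 activators or inhibitors, 4 chaperones of 20S assembly, 3 chaperones of 19S assembly and 1 gene that is no subunit. The label "constitutive" held for most but not all of them. Psma8 is an alpha subunit of the testis, Psmb11 a beta subunit of the thymic cortex, Psme2b an intronless copy of Psme2, and Psmc3ip a meiotic recombination factor that shares only its name with the ATPase it binds. Leaving out Psma8 and Psmb11, 31 genes encode the general 20S and 19S subunits, and these are called the core subunits here.

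The promoter windows of 5 genes are printed because these genes stand for the contrasts described in the results: Psme1 and Psme2 encode the same activator, Psmg4 and Psma6 were raised at 4 h, and Psmd5 was lowered. Each window covers the bases from 250 before to 50 after a transcription start in RefSeq on GRCm38.p6, written 5′ to 3′ on the gene's strand. Capitals mark a match to the interferon-stimulated response element (ISRE, letters GAAA, any 2 bases, then GAAA, on either strand) in Psme1 and Psmg4, and to the NF-kB consensus in Psma6, for which 1 of 2 windows is shown.
Psme1, chr14:55578244-55578543, plus strand: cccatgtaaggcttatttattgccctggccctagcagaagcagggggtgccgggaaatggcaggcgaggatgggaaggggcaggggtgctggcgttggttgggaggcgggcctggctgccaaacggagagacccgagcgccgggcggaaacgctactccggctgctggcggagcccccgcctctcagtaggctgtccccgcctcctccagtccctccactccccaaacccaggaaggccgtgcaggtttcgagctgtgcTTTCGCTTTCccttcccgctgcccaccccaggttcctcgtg
Psme2, chr14:55591052-55591351, minus strand: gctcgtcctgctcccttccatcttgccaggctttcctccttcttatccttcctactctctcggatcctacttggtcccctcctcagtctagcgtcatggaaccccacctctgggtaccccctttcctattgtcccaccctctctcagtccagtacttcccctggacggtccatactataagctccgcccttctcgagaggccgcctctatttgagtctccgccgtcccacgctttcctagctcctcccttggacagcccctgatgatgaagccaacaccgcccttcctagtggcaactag
Psmg4, chr13:34162714-34163013, plus strand: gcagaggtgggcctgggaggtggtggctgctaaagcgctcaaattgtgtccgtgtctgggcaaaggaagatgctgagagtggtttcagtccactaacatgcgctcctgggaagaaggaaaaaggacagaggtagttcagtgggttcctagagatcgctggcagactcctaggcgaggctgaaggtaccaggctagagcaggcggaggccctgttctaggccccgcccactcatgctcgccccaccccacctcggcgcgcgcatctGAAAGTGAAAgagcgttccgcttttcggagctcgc
Psma6, chr12:55398575-55398874, plus strand: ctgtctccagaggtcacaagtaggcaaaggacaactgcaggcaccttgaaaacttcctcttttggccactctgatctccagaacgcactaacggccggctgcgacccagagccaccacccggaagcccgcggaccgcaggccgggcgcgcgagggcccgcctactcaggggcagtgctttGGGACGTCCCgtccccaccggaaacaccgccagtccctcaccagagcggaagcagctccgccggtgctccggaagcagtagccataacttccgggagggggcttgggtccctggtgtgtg
Psmd5, chr2:34870913-34871212, minus strand: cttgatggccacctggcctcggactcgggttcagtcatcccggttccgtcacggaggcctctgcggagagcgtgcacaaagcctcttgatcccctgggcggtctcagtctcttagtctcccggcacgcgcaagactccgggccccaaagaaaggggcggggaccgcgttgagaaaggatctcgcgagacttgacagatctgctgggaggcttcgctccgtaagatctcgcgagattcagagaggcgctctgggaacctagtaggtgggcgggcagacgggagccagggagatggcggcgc
Windows were found for 39 of the 47 genes (42 windows in all). Psma8, Psmb1, Psmb2, Psmb7, Psmc3, Psmd3, Psmd7 and Psmg2 had none in the table. The ISRE letters were in the windows of 5 genes (Psmb3, Psmd4, Psmd9, Psme1 and Psmg4) and in 3.44% of all 32851 RefSeq windows. In Psme1 the match started 9 bases after the start of transcription on the reverse strand, and in Psmg4 15 bases after it on the gene's own strand. Neither of the 2 overlapping windows of Psme2 held it. Genes with these letters went both ways at 4 h on the TMM scale explained below. Psme1, Psmg4 and Psmd4 were higher, with log2 fold changes of 2.14, 1.21 and 0.53. Psmb3 (-0.18) and Psmd9 (-0.40) were lower, and with the library size alone Psmd4 was lower too (-0.17). The NF-kB consensus was in the windows of 6 genes (Psma6, Psma7, Psmd11, Psmd12, Psmd13 and Psme4), against 8.46% of all windows. The core of the antioxidant response element, TGACNNNGC, which Nfe2l1 and Nfe2l2 recognise, was in 6 genes (Psmb5, Psmb6, Psmc6, Psmd12, Psmd9 and Psme4), against 12.4% of all windows. The interferon gamma-activated site TTCNNNGAA was in 2 genes, Psmd2 and Psmg1, against 8.30% of all windows, and CCAAT on either strand was in 14 genes, against 37.4%. For each motif the number of genes is also the number of their windows with a match, out of 42 windows. Both strands were searched for each motif, and matches of different motifs may share bases. A match is a string of letters and was not tested as a binding site.

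In vessels of PBS mice, levels of the core subunits per transcript length, in TPM, which adjusts for length and for the library total, ranged widely. Psmb6, a catalytic beta subunit, was the highest of the 47 genes at 221 ± 6.32 TPM (SD, n = 3), followed by the alpha subunit Psma7 at 202 ± 8.84 TPM and the beta subunit Psmb4 at 176 ± 6.34 TPM. The lowest core subunits were Psmd11, a scaffold subunit of the 19S lid, at 31.4 ± 2.48 TPM, Psmd12 at 37.3 ± 2.75 TPM and Psma2 at 40.6 ± 1.02 TPM. Neighbours in this order often did not differ beyond their spread: Psmc3 at 124 ± 3.68 TPM and Psmb5 at 124 ± 10.4 TPM are an example. Although alpha subunits enter the particle in equal numbers, the highest and the lowest of the 7 general alpha genes differed by 4.71 to 5.35 times within a PBS library, and the 7 general beta genes by 2.54 to 2.77 times. Of the caps, Psme1 (160 ± 0.103 TPM) and Psme2 (155 ± 6.73 TPM) were as abundant as the core genes, whereas Psme3 (30.5 ± 1.05 TPM) and Psme4 (16.1 ± 1.31 TPM) were lower. Chaperones were low, from 14.8 ± 0.914 TPM for Psmd9 to 44.9 ± 4.5 TPM for Psmg4. The restricted genes were near the bottom, with Psma8 at 5.01 ± 1.31 TPM and Psmb11 at 0.102 ± 0.0165 TPM.

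Depth ranged from 18.3 to 25.9 M assigned fragments per library. Libraries of LPS 4 h differed from the others in composition: their mean scaling factor from the trimmed mean of M-values (TMM) was 0.717, against 1.17 in PBS, 1.15 in LPS 15 min and 1.04 in LPS 30 min. With TMM the median log2 fold change of all genes tested was -0.01 at 4 h, and with the library size alone it was -0.71, so every 4 h value below depends on the scale by this amount and is to be read relative to the median gene. At 30 min the median moved from -0.01 to -0.17. The levels of cell type markers differed too. The summed level of 12 endothelial markers was 12563 to 12914 CPM (counts scaled to a common library total, here with TMM factors) in PBS and 7407 to 7474 CPM at 4 h. Neutrophil markers (5 of 6 tested) summed to 6.71 to 8.59 CPM in PBS and to 197 to 204 CPM at 4 h. The sum of 5 red cell markers was 2317 to 2492 CPM in PBS and 6941 to 7306 CPM at 4 h, and that of 4 choroid plexus markers 10321 to 10747 CPM and 17317 to 18205 CPM. Of 7 astrocyte markers the sum was 731 to 755 CPM in PBS and 1395 to 1454 CPM at 4 h. With the library size alone 2 of these 7 were higher and 4 lower at 4 h. Of the 4 choroid plexus markers 2 were higher and 1 lower on that scale. All 7 neuron markers and 5 of 7 microglia markers were lower at 4 h, with sums of 412 to 427 and 104 to 110 CPM in PBS against 269 to 282 and 66.5 to 72.5 CPM. Markers moved at the earlier times too. At 15 min all 5 smooth muscle markers were lower (3 of them beyond 1.5-fold), and all 5 red cell markers were higher. The smooth muscle sum was 2470 to 2514 CPM in PBS and 1588 to 1613 CPM at 15 min. The neuron sum was higher, at 562 to 579 CPM. The astrocyte (570 to 614 CPM) and choroid plexus sums (9206 to 9699 CPM) were lower. So was the fibroblast sum, at 241 to 254 CPM against 337 to 364 CPM in PBS. The pericyte sum was higher, and the microglia and oligodendrocyte sums were lower. With the library size alone 5 of 7 neuron markers were higher and 1 lower. On that scale 5 astrocyte, 4 choroid plexus and 4 fibroblast markers were lower. At 30 min the 5 red cell markers (4 of them beyond 1.5-fold) and the 4 choroid plexus markers were higher. Their sums were 4437 to 4663 CPM and 13606 to 13950 CPM, and with the library size alone 5 and 3 were higher. The astrocyte sum was higher (772 to 797 CPM), with 3 markers higher and 3 lower with the library size alone. The neuron (375 to 380 CPM), fibroblast (278 to 282 CPM), smooth muscle (2248 to 2300 CPM), microglia and pericyte sums were lower. The endothelial sum was higher, although with the library size alone 11 of the 12 markers were lower. No listed marker of these cell types was at 0 in all libraries, and the part of these cells in the proteasome results was not tested.

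The first question of the time course was how early the vessels respond. At LPS 15 min the proteasome genes were close to their PBS level. Of the 47 genes, 6 were higher and 4 lower (edgeR quasi-likelihood test with p-values adjusted by Benjamini-Hochberg across the genes tested, threshold 0.05), shares of 12.8% and 8.51%, against 20.4% and 18.2% of all genes tested. The median log2 fold change of the 47 genes was -0.02, against -0.00 for all genes. The counts were 4 higher and 9 lower with the library size alone. None passed edgeR's test for a change beyond 1.5-fold, against 4.18% of all genes, and none did at an unadjusted p below 0.05 or in DESeq2. The largest called change was in Psme4, which encodes the PA200 activator: its level was 60.4, 61.2 and 56.8 CPM in the PBS libraries and 72.0, 76.7 and 70.9 CPM in LPS 15 min. The groups did not overlap, and the log2 fold change was 0.30 ± 0.04 (SE; adjusted p = 7.25e-06). The alpha subunit Psma3 (0.22 ± 0.05), the ATPase Psmc4 (0.21 ± 0.05), the PA28 gamma gene Psme3 (0.17 ± 0.05), Psmd11 (0.13 ± 0.05) and the ATPase Psmc6 (0.11 ± 0.04) were the other higher genes. The call of Psma3 turned on transcripts annotated as non-coding: counted over protein-coding transcripts alone its log2 fold change was -0.03 (adjusted p = 0.895). The 4 lower genes were the catalytic subunit Psmb7, the alpha subunit Psma2, and Psmd1 and Psmd12 of the 19S cap, by 0.15 to 0.17 on the log2 scale. Psmb7 read 64.7, 66.2 and 63.6 CPM in PBS and 56.6, 56.8 and 60.1 CPM in LPS 15 min, so the 3 LPS libraries lay below the 3 PBS libraries. The calls of Psmd11, Psmd12 and Psmc6 were each lost when single libraries were left out, and that of Psme3 without LPS 15 min library 3.

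At LPS 30 min more of the genes were above than below PBS on the TMM scale, by small amounts, beside the higher red cell and choroid plexus markers. Of the 47 genes, 14 were higher and 1 lower, shares of 29.8% and 2.13%, against 19.7% and 17.2% of all genes. The median was 0.08, against -0.01 for all genes. No gene passed edgeR's test for a change beyond 1.5-fold, against 4.58% of all genes; 1 gene, Psme2b, did at an unadjusted p below 0.05, and none in DESeq2. Among the ATPases 4 of 6 were higher: Psmc4 by 0.21 ± 0.05, Psmc6 by 0.20 ± 0.04, Psmc3 by 0.17 ± 0.04 and Psmc5 by 0.16 ± 0.04 on the log2 scale. Psma6, an alpha subunit, gave the clearest change among the core subunits. It read 65.8, 65.6 and 64.0 CPM in PBS and 76.1, 77.1 and 78.4 CPM at 30 min, without overlap, a log2 fold change of 0.24 ± 0.04 (adjusted p = 1.85e-05). Psme2 rose from 56.8, 59.5 and 58.7 CPM to 69.2, 67.5 and 70.3 CPM (0.24 ± 0.04), and its partner Psme1 from 85.5, 85.7 and 84.4 CPM to 92.6, 90.5 and 93.3 CPM (0.11 ± 0.03). Psme3, Psme4, Psma3, Psmd7, Psmb1 and Psmb4 were higher by 0.12 to 0.20. Over protein-coding transcripts alone Psma3 was at 0.16 and not called (adjusted p = 0.381). Psmc3ip, the gene that is no subunit, had the highest value at 0.76 ± 0.21, but its level was only 2.43 to 3.22 CPM in PBS, and without LPS 30 min library 3 the value was 0.50 and no longer called (adjusted p = 0.0884). Without the same library the calls of Psma3 (0.10, adjusted p = 0.0940) and Psmb1 (0.11, adjusted p = 0.0744) were lost too, and that of Psmb1 was also lost without PBS library 1 (adjusted p = 0.0729) or PBS library 2 (adjusted p = 0.124). The 1 lower gene was Psme2b at -0.98 ± 0.17. The direction at 30 min depended on the scale: with the library size alone 1 gene was higher and 13 were lower, while the median of the 47 genes was 0.09 above that of all genes on both scales, a distance that scaling hardly moves.

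From LPS 15 min to LPS 30 min, 14 of the 47 genes rose and 3 fell, against 19.2% and 18.2% of all genes. Psmb7 and Psmc5 rose by 0.24 ± 0.04 and 0.24 ± 0.04 on the log2 scale and Psmb4 by 0.21 ± 0.04. The 3 that fell were Psma8, Psme2b and Psme4. Psme4 fell by 0.14 ± 0.04, so it was higher at 15 min than at 30 min. Without LPS 30 min library 3 the counts were 9 and 0, and without LPS 15 min library 2 no gene was called lower. They were 1 and 13 with the library size alone, shares of 2.13% and 27.7%, against 10.7% and 34.6% of all genes.

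**Figure D1:**
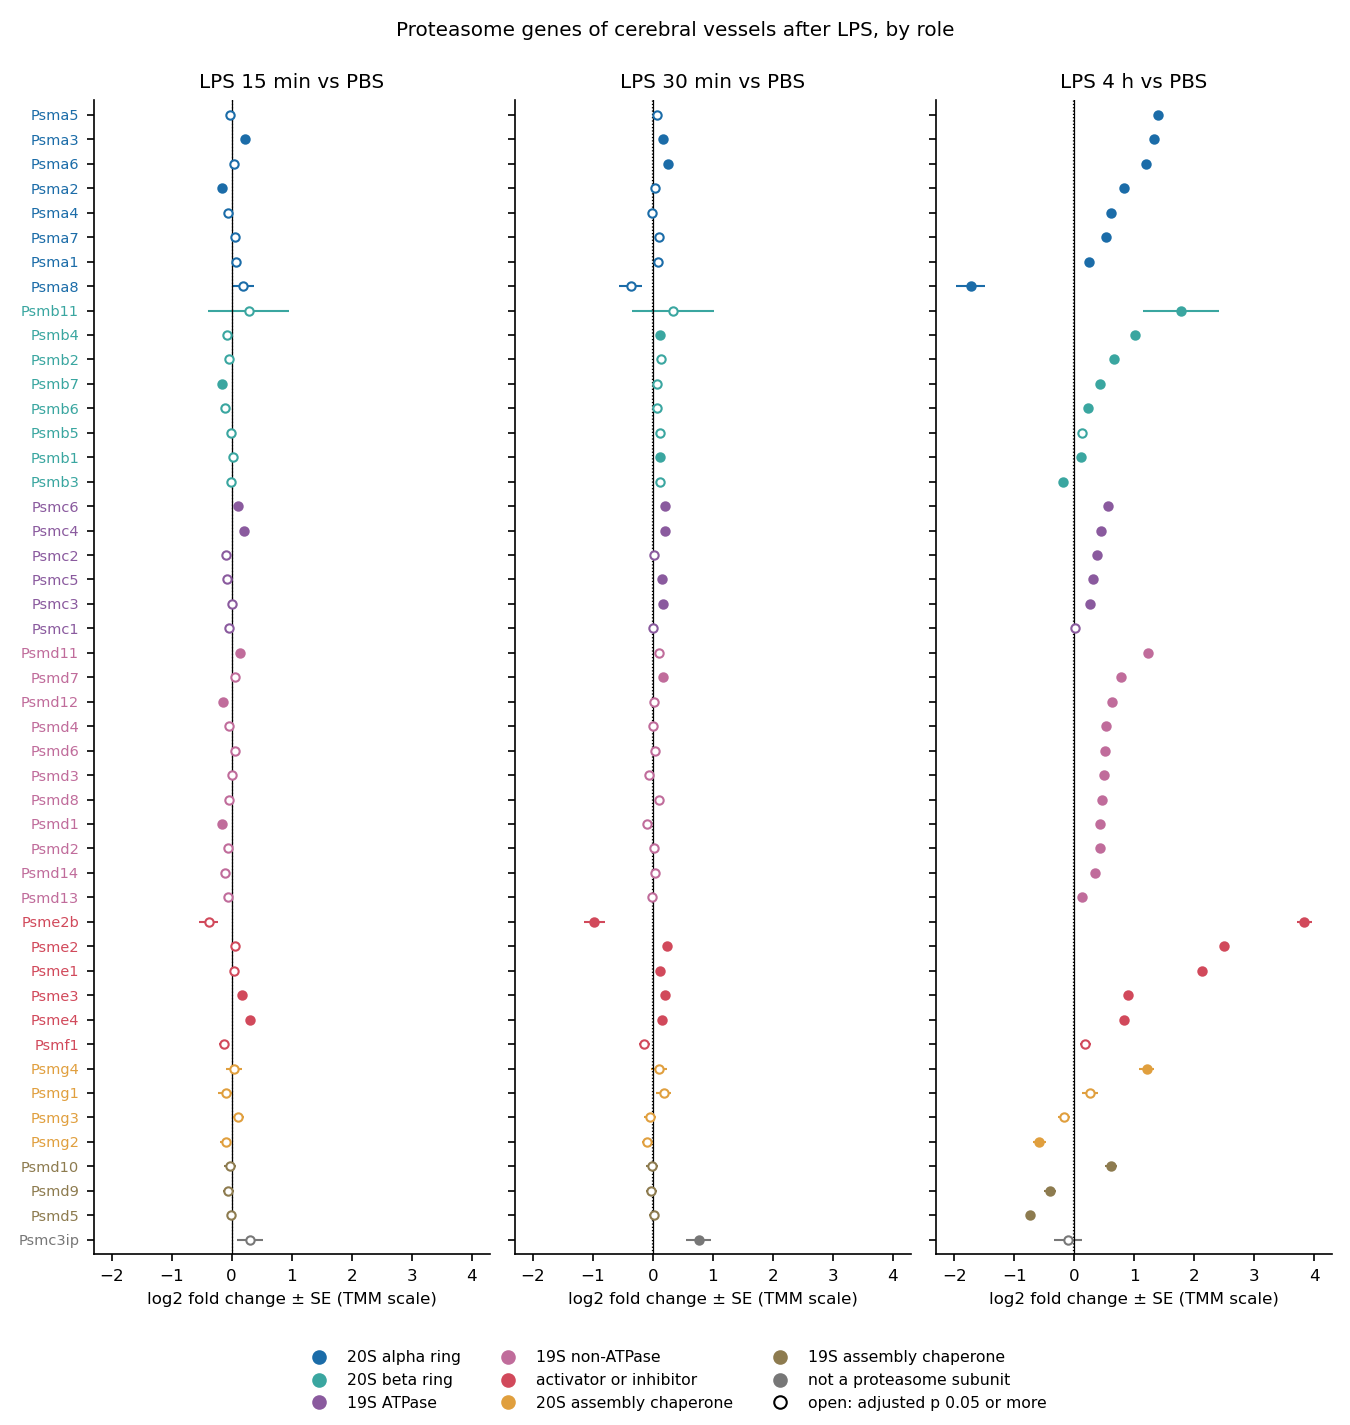
Each point is the log2 fold change of 1 proteasome gene against PBS, with its standard error, on the TMM scale; colours give roles, filled points passed the test, and the dotted line is the median of all genes tested. At 15 min and 30 min nearly all points lie close to 0. At 4 h 36 genes are called higher and 5 lower on this scale. With the library size alone 12 are called higher and 29 lower, against 15.6% and 63.9% of all genes.

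At LPS 4 h most of the genes were above PBS on the TMM scale. Of the 47 genes, 36 were higher and 5 lower on the TMM scale. These were shares of 76.6% and 10.6%, against 34.9% and 33.7% of all genes. With the library size alone 12 were higher and 29 lower, shares of 25.5% and 61.7%, against 15.6% and 63.9% of all genes. Beyond 1.5-fold, 13 were higher and 2 lower, against 19% and 13.8% of all genes. The median of the 47 genes was 0.47, against -0.01 for all genes, a distance of 0.48. The medians were -0.23 and -0.71 with the library size alone; a change of scaling moves all genes by nearly the same amount, so it hardly moves the distance. Taken relative to the PBS level, the median change of the set lay 0.45 to 0.48 above that of all genes in each LPS 4 h library. In the PBS libraries this distance was -0.00 to 0.02, which is near 0 by construction. The groups did not overlap, upwards, for 37 genes and, downwards, for 5, against 35.9% and 35.0% of all genes. Leaving out Psmc3ip, Psme2b, Psma8 and Psmb11, a choice made after the data were seen, 34 of 43 genes were higher and 4 lower.

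The 13 genes that were higher beyond 1.5-fold were Psme2b, Psme2, Psme1, Psma5, Psma3, Psmd11, Psmg4, Psma6, Psmb4, Psme3, Psme4, Psma2 and Psmd7. With the library size alone 12 genes of the set were called higher, and these were the same genes without Psmd7. That scale lowers every gene by about 0.70 on the log2 scale. The overlap is therefore largely fixed in advance and is no separate evidence.

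The activators had the largest changes of the set. Psme1 was at 85.5, 85.7 and 84.4 CPM in PBS, 90.3, 88.4 and 85.1 CPM at 15 min, 92.6, 90.5 and 93.3 CPM at 30 min, and 380, 369 and 378 CPM at 4 h. Psme2 was at 56.8, 59.5 and 58.7 CPM in PBS, 63.3, 59.9 and 58.4 CPM at 15 min, 69.2, 67.5 and 70.3 CPM at 30 min, and 337, 315 and 333 CPM at 4 h. All LPS 4 h libraries lay far above every other library, and the spread within each group was small beside the step. The rise was 4.41-fold for Psme1 (log2 fold change 2.14 ± 0.03, adjusted p = 3.77e-25) and 5.63-fold for Psme2 (2.49 ± 0.04, adjusted p = 1.42e-24), which placed them at ranks 1279 and 1061 among the 19150 genes ordered from the largest rise. The Psme1 value was 1.44 with the library size alone. The 2 genes lie 5912 bases apart on chromosome 14 and on opposite strands, and the PA28 ring contains both proteins. Per transcript length, Psme2 was 0.921 to 0.999 times Psme1 in PBS and 1.1 to 1.22 times at 4 h. Together they took 5.66% to 5.71% of the fragments of the 47 genes in PBS and 16.3% to 16.8% at 4 h.

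Psme3, which forms the nuclear PA28 gamma cap, rose less. It was at 43.1, 44.9 and 44.6 CPM in PBS and 88.7, 81.5 and 76.3 CPM at 4 h, a log2 fold change of 0.89 ± 0.05 (adjusted p = 4.42e-13). Psme4 was at 60.4, 61.2 and 56.8 CPM in PBS and 105, 108 and 106 CPM at 4 h, a log2 fold change of 0.84 ± 0.04 (adjusted p = 5.96e-14). Psmf1 encodes PI31, first described as an inhibitor of the 20S core. Its level was 24.5, 20.9 and 25 CPM in PBS and 25.7, 24.5 and 30.0 CPM at 4 h, overlapping, with a log2 fold change of 0.19 ± 0.09 (adjusted p = 0.0574), and -0.51 with the library size alone. That value passed the threshold without PBS library 3 (0.23, adjusted p = 0.0370) or without LPS 4 h library 2 (0.25, adjusted p = 0.0259).

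**Figure D2:**
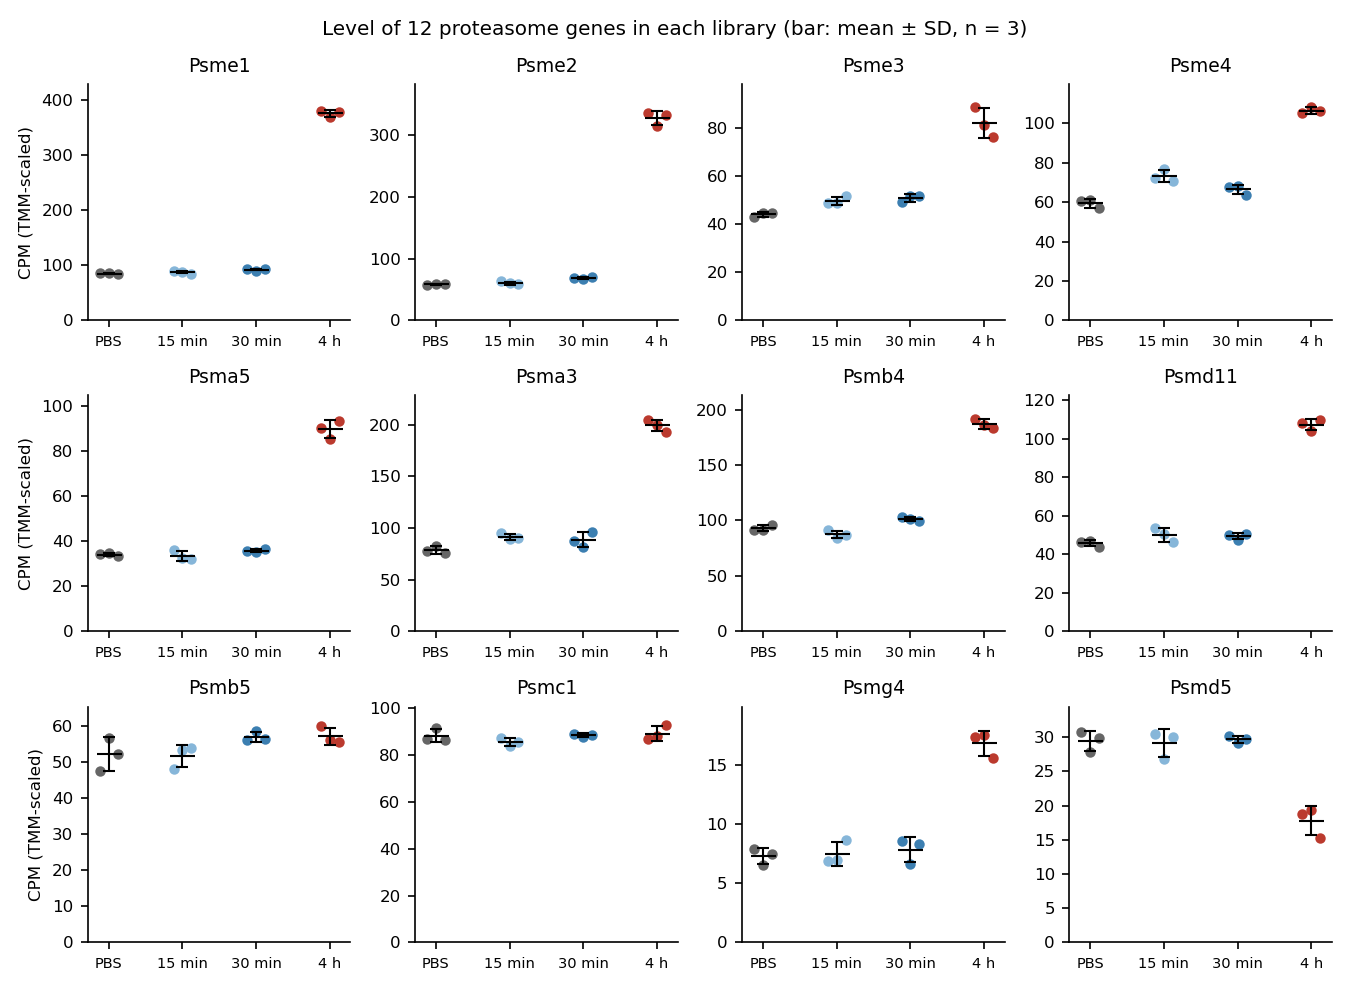
Each panel shows 1 gene, with 3 libraries per group as points and the mean ± SD as bars, in CPM on the TMM scale from 0. Psme1 and Psme2 stand at 369 to 380 and 315 to 337 CPM at 4 h, Psmb5 and Psmc1 overlap their PBS levels (both are lower with the library size alone), and Psmd5 is lower at 4 h, with 15.3 to 19.3 CPM against 27.8 to 30.7 CPM.

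Of the 8 alpha ring genes, 7 were higher at 4 h and Psma8 was lower; with the library size alone 4 were higher and 3 lower. The rises were unequal. Psma5 was at 34.2, 34.8 and 33.2 CPM in PBS and 90.1, 85.4 and 93.6 CPM at 4 h, a 2.63-fold rise (log2 fold change 1.40 ± 0.05). Psma3 was at 78.0, 82.6 and 75.8 CPM in PBS and 205, 200 and 193 CPM at 4 h (1.34 ± 0.05), a value of 0.97 over its protein-coding transcripts alone. Psma6 was at 65.8, 65.6 and 64.0 CPM in PBS and 148, 151 and 149 CPM at 4 h (1.2 ± 0.04). These 3 genes had no overlap with PBS and rose on every scale tried. Psma2 followed with 0.84 ± 0.04, Psma4 with 0.61 ± 0.05, Psma7 with 0.53 ± 0.04 and Psma1 with 0.25 ± 0.05. With the library size alone Psma1 and Psma7 were lower, by 0.45 and 0.17 on the log2 scale, and Psma4 was not called. Psma8 fell from 2.81, 4.12 and 4.28 CPM to 1.23, 1.00 and 1.16 CPM, a log2 fold change of -1.72 ± 0.24 (adjusted p = 9.74e-07), on 15 to 17 fragments per LPS 4 h library.

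Of the 8 beta ring genes, 6 were higher at 4 h, Psmb3 was lower and Psmb5 was not called; with the library size alone only Psmb4 was higher and 5 were lower. Psmb4, a non-catalytic subunit needed for precursor particles to join, was at 91.3, 91.6 and 96.0 CPM in PBS and 192, 186 and 183 CPM at 4 h, a 2.01-fold rise (1.01 ± 0.04, adjusted p = 2.82e-17). Other non-catalytic beta subunits had smaller values: Psmb2 was higher by 0.67 ± 0.06, and Psmb1 by 0.12 ± 0.04. The call of Psmb1 was lost without PBS library 1 or 2, and its direction turned with upper quartile scaling (-0.02) and with the library size alone (-0.58). Psmb3 was at 56.3, 55.1 and 51.8 CPM in PBS and 47.8, 47.3 and 48.6 CPM at 4 h, lower in every library, with a log2 fold change of -0.18 ± 0.05. The thymic gene Psmb11 had 6 to 9 fragments per library in PBS and 8 to 23 at 4 h, and its called rise (1.78 ± 0.64) was lost without LPS 4 h library 2 (1.2, adjusted p = 0.177) or without PBS library 1 (1.68, adjusted p = 0.0546).

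The 3 catalytic beta subunits moved little. Psmb5, the chymotrypsin-like subunit, was at 47.5, 56.7 and 52.3 CPM in PBS and 59.8, 55.9 and 55.5 CPM at 4 h, overlapping, with a log2 fold change of 0.13 ± 0.06 (adjusted p = 0.0709). Without PBS library 2 it was 0.19 (adjusted p = 0.0118), and with the library size alone -0.58. Psmb6, the caspase-like subunit, was higher by 0.24 ± 0.05 and Psmb7, the trypsin-like subunit, by 0.43 ± 0.05, and with the library size alone these were -0.46 and -0.28. Their immunoproteasome counterparts rose much further: Psmb8 by 3.25 ± 0.04, Psmb9 by 2.57 ± 0.05 and Psmb10 by 2.67 ± 0.03 on the log2 scale. Per transcript length, Psmb8 was 0.764 to 0.944 times Psmb5 in PBS and 6.75 to 7.23 times at 4 h, Psmb9 was 0.208 to 0.238 times Psmb6 and then 1.16 to 1.37 times, and Psmb10 was 1.28 to 1.49 times Psmb7 and then 6.55 to 7.27 times.

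**Figure D3:**
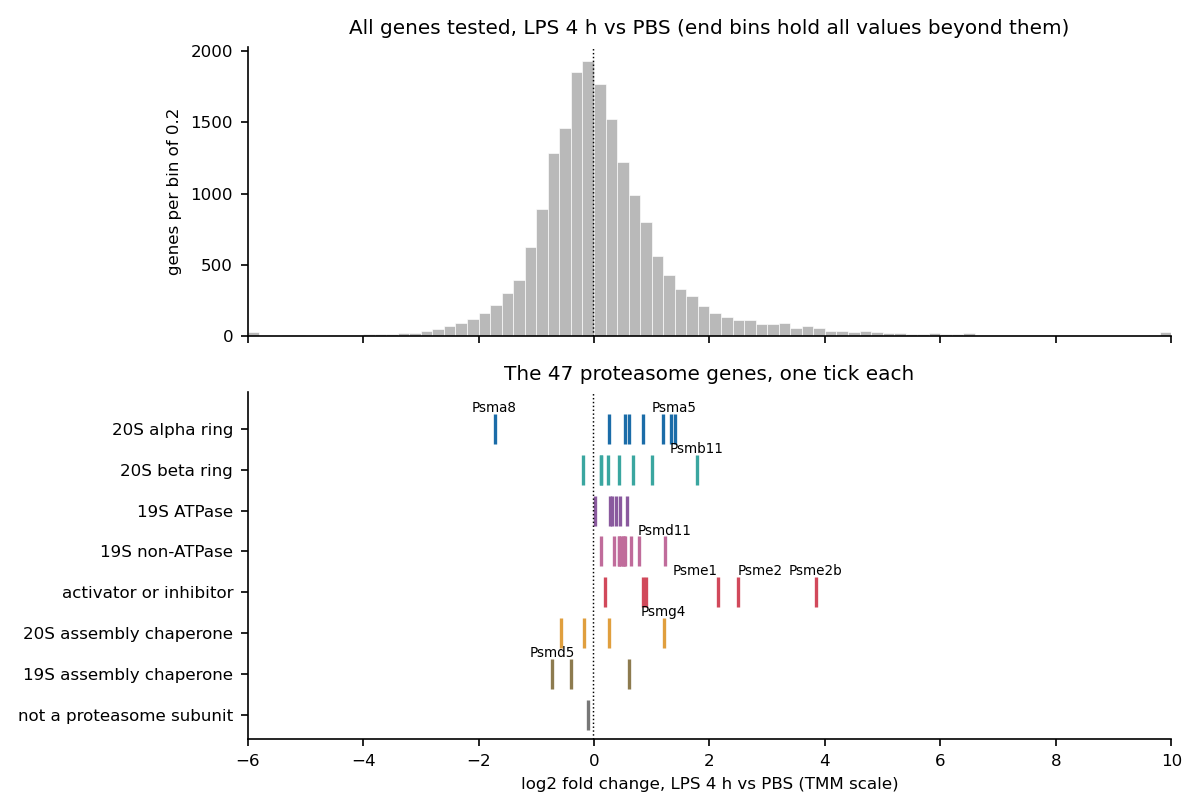
The upper panel counts all 19150 genes tested by their log2 fold change at 4 h on the TMM scale, and the lower panel marks each of the 47 genes by role; the dotted line is the median of all genes, -0.01. The ATPases lie between 0.02 and 0.57, and the assembly chaperones on either side of 0. Among the activators Psme2 lies at 2.49, and its copy Psme2b, whose value is uncertain, at 3.84. With the library size alone every value is 0.70 lower.

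In the 19S cap most changes were small on the TMM scale. Of the 6 ATPases 5 were higher at 4 h on the TMM scale, and all 6 were lower with the library size alone. Psmc6 (0.57 ± 0.04) had the highest value and Psmc1 (0.02 ± 0.04) the lowest. Psmc1 was at 86.8, 91.4 and 86.3 CPM in PBS and 86.7, 87.9 and 92.8 CPM at 4 h, so its groups overlapped on the TMM scale, and its value was -0.13 with upper quartile scaling and -0.69 with the library size alone. All 11 non-ATPase subunits were higher, from 0.12 ± 0.05 for Psmd13 to 1.23 ± 0.05 for Psmd11; with the library size alone only Psmd11 was higher and 8 were lower. Psmd11, a lid subunit known to promote the assembly of the full particle, was at 46.3, 47.1 and 43.9 CPM in PBS and 108, 104 and 109 CPM at 4 h, a 2.34-fold rise without overlap (adjusted p = 6.38e-16). Psmd7, the lid partner of the deubiquitinase Psmd14, was the other one beyond 1.5-fold: it was at 64.6, 67.9 and 68.4 CPM in PBS and 118, 109 and 119 CPM at 4 h (0.78 ± 0.04). Psmd14 itself was higher by 0.34 ± 0.07, and the scaffold subunits Psmd1 and Psmd2 by 0.43 ± 0.04 and 0.43 ± 0.03. The ubiquitin receptor Psmd4 was higher by 0.53 ± 0.04. The call of Psmd13 was lost when any of 5 libraries was left out, PBS library 1 and LPS 4 h library 1 among them.

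Assembly chaperones went in opposite directions on the TMM scale. With the library size alone, 1 chaperone of 20S assembly (Psmg4) was higher and 3 were lower. On that scale 0 chaperones of 19S assembly were higher and 2 were lower. Psmg4, a chaperone of the early alpha ring that works with Psmg3, was at 7.90, 6.55 and 7.44 CPM in PBS and 17.3, 17.6 and 15.6 CPM at 4 h, a 2.31-fold rise (1.21 ± 0.13, adjusted p = 2.19e-08). Its partner Psmg3 was not called (-0.17 ± 0.11, adjusted p = 0.167), and was called lower with the library size alone (-0.87). Psmg2 was at 17.3, 16.2 and 15.7 CPM in PBS and 13, 9.92 and 10.1 CPM at 4 h, lower in all 3 libraries (-0.58 ± 0.10, adjusted p = 3.53e-05), whereas its partner Psmg1 was at 8.17, 7.42 and 7.52 CPM in PBS and 8.17, 9.06 and 10.5 CPM at 4 h (0.26 ± 0.13, adjusted p = 0.0731). Psmg1 passed the threshold without LPS 4 h library 1 (0.34, adjusted p = 0.0357) and had -0.44 with the library size alone. Of the chaperones of the 19S base, Psmd5 was at 30.7, 27.8 and 29.8 CPM in PBS and 18.8, 19.3 and 15.3 CPM at 4 h, a fall without overlap (-0.73 ± 0.08, adjusted p = 4.08e-08). Psmd9 was lower by 0.40 ± 0.10, and Psmd10, also known as gankyrin, was higher by 0.61 ± 0.10 and at -0.09 with the library size alone. Psmd5 and Psma8 were the 2 genes that were lower beyond 1.5-fold.

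The highest value at 4 h belonged to Psme2b, an intronless copy of Psme2. It was at 5.39, 5.36 and 3.32 CPM in PBS, 3.56, 4.33 and 2.98 CPM at 15 min, 2.38, 2.67 and 2.10 CPM at 30 min, and 68.8, 66.1 and 67.4 CPM at 4 h. The 4 h libraries stood apart from all others, with a log2 fold change of 3.84 ± 0.13 (adjusted p = 6.46e-18). Fragments of a copy so like its parent are divided between them by the quantifier's model, and the gene overlaps Gm12185 and 9930111J21Rik1, protein-coding genes annotated on its own strand. Its value is therefore uncertain.

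From LPS 30 min to LPS 4 h, 35 of the 47 genes rose and 6 fell, against 31.9% and 33.3% of all genes. With the library size alone 12 rose and 25 fell, shares of 25.5% and 53.2%, against 16.6% and 59.7% of all genes. Psme2 rose by 2.25 ± 0.04, Psme1 by 2.03 ± 0.03, Psma5 by 1.32 ± 0.05, Psma3 by 1.17 ± 0.05 and Psmd11 by 1.12 ± 0.05 on the log2 scale. Psma6 rose by 0.95 ± 0.04. The 6 that fell were Psma8, Psmc3ip, Psmd5, Psmg2, Psmd9 and Psmb3. The 3 comparisons with PBS share their 3 PBS libraries, so their values for a gene are not independent of each other.

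**Figure D4:**
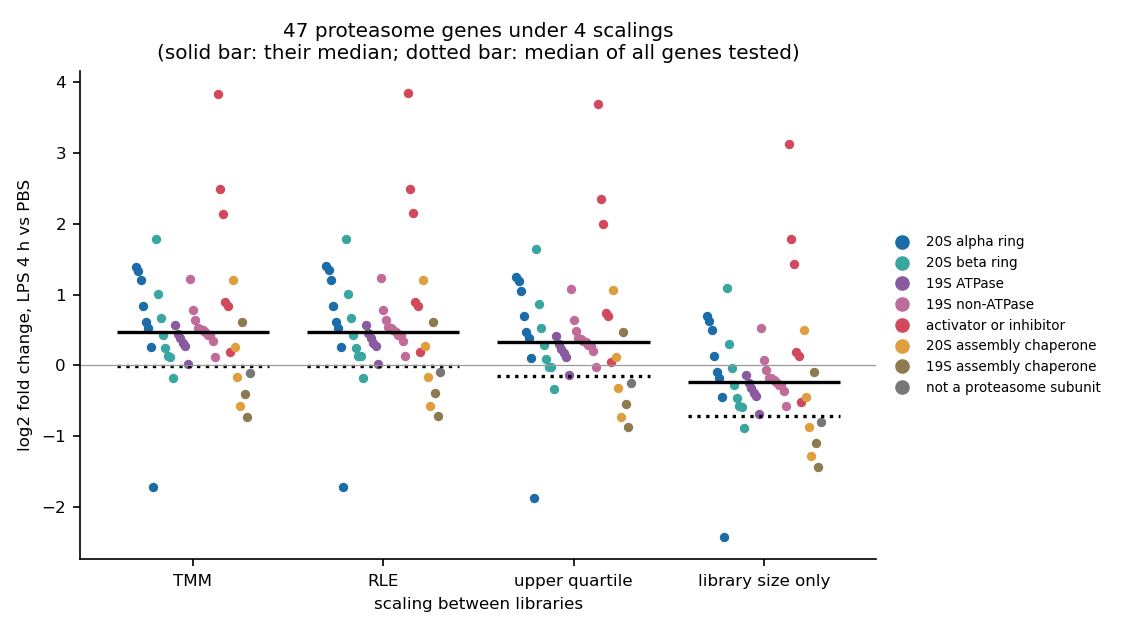
Each point is the log2 fold change of 1 of the 47 genes at 4 h under 1 of 4 scalings between libraries (x axis), coloured by role, with solid bars at their median and dotted bars at the median of all genes. The distance between the bars is 0.48 in each, since scaling moves all genes together, while the median of the set moves from 0.47 with TMM to 0.32 with upper quartile and -0.23 with the library size alone.

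The 31 core subunits did not move as a block at 4 h. Their log2 fold changes ran from -0.18 for Psmb3 to 1.40 for Psma5, a range of 1.58, with a median of 0.47 and quartiles of 0.29 and 0.65. A change of scaling moves these values together and leaves the range as it is. As a share of all assigned fragments, the core subunits together held 0.248% to 0.250% in PBS, 0.241% to 0.245% at 15 min, 0.234% to 0.238% at 30 min and 0.225% to 0.227% at 4 h. On the TMM scale their summed level was 2126 to 2153 CPM in PBS and 3131 to 3176 CPM at 4 h. The share and the scaled sum thus went in opposite directions.

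Per transcript length, the order within the rings changed. TPM is not corrected for composition, so only genes of 1 group are compared with each other here. At 4 h Psme2 (461 ± 39.3 TPM) and Psme1 (392 ± 13.4 TPM) stood above the other 45 genes, whereas in PBS 4 genes (Psmb6, Psma7, Psmb4 and Psmb3) stood above both. In the beta ring, Psmb6 had been the highest in PBS and Psmb4 was the highest at 4 h, at 205 ± 4.93 TPM against 141 ± 7.14 TPM for Psmb6 and 73.5 ± 3.51 TPM for Psmb5. The ratio of the highest to the lowest beta gene within a library was 2.54 to 2.77 in PBS and 4.19 to 4.25 at 4 h, and it did not overlap between the groups. In the alpha ring that ratio was 4.71 to 5.35 in PBS and 5.05 to 5.07 at 4 h, which overlapped. Psma5 stood at 0.250 to 0.283 times Psma7 in PBS and at 0.471 to 0.533 times at 4 h. Among the 11 non-ATPase subunits the ratio was 3.85 to 4.34 in PBS and 3.23 to 3.44 at 4 h, and Psmd11, the lowest of them in PBS, had the largest rise.

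**Figure D5:**
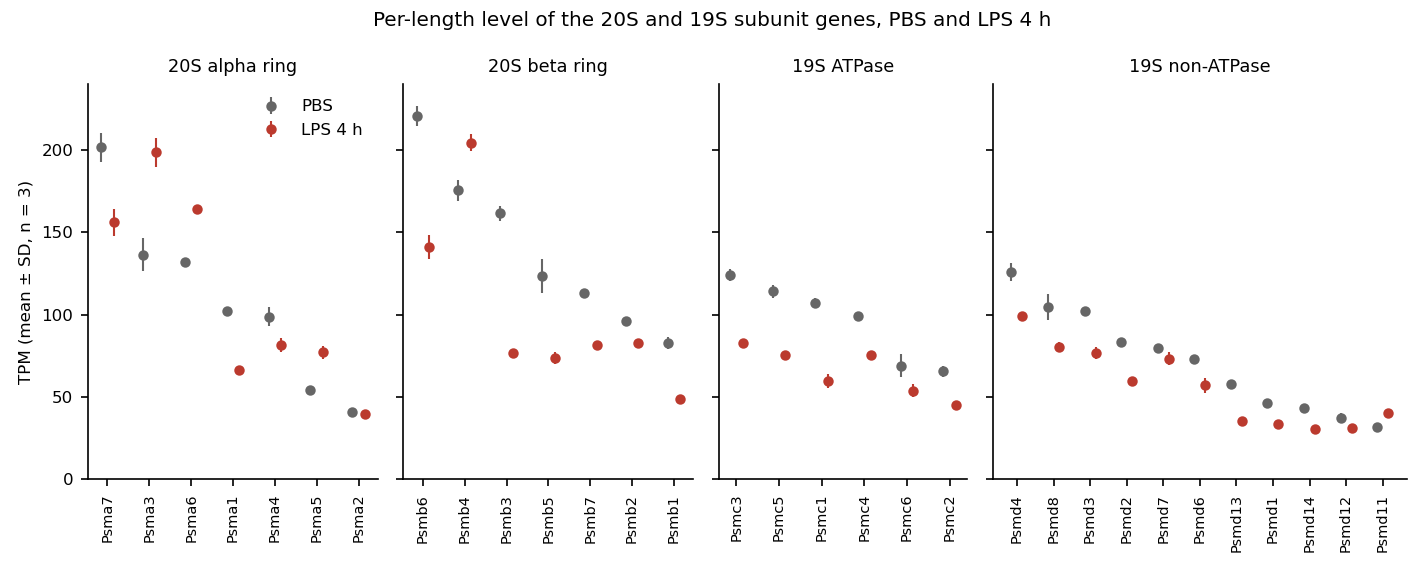
Mean TPM ± SD (n = 3) of the 31 core subunits in PBS (grey) and LPS 4 h (red), in 4 panels by role and ordered by the PBS level. Psmb4, Psma3, Psma6, Psma5 and Psmd11 stand higher at 4 h on this uncorrected scale and most others lower, and the order of the beta ring changes from Psmb6 first to Psmb4 first.

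Most fragments of the set fell on protein-coding transcripts: 92.3% to 92.5% in PBS, 90.1% to 90.2% at 15 min, 91.5% to 92.5% at 30 min and 88.8% to 89.6% at 4 h. Psma3 was the exception. Its protein-coding transcripts held 28.2% ± 3.82 of its fragments in PBS (SD, n = 3) and 21.7% ± 2.88 at 4 h, and over all libraries 49.2% of its fragments fell on 1 transcript annotated with a retained intron. For Psme1 the share was 88.0% ± 0.0792 in PBS and 78.7% ± 1.28 at 4 h, and its log2 fold change over protein-coding transcripts alone was 2.00.

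Genes that act with the proteasome were counted in lists made by function. Of 11 further proteasome factors, 10 were higher at 4 h, 3 of them beyond 1.5-fold, and Uchl5 was not called (-0.19 ± 0.11), against 34.9% of all genes higher; with the library size alone 1 was higher (Zfand5) and 8 were lower, against 15.6% and 63.9% of all genes. Zfand5, an activator of the 26S particle, went from 89.1 ± 0.803 to 394 ± 8.64 CPM (SD, n = 3; 2.14 ± 0.03), and the arsenite-inducible Zfand2a was already higher at 15 min (0.56 ± 0.06) and at 30 min (0.91 ± 0.06). Pomp, the chaperone of 20S maturation, was at 0.52 ± 0.04 and the ubiquitin receptor Adrm1 at 0.32 ± 0.05 at 4 h. Another list held 11 genes of proteasome gene regulation, not all of which encode transcription factors. Of these, 9 were higher and 1 lower at 4 h, against 34.9% and 33.7% of all genes. With the library size alone 5 were higher (Maff, Mafk, Nfe2l2, Stat3 and Mafg) and 5 lower, against 15.6% and 63.9% of all genes. Nfe2l1, the factor that restores proteasome genes when degradation is blocked, was higher by 0.56 ± 0.02 and Nfe2l2 by 2.74 ± 0.05, and their small Maf partners Maff, Mafk and Mafg by 4.74 ± 0.04, 3.02 ± 0.03 and 0.86 ± 0.04. At 4 h Stat3 was higher by 2.73 ± 0.03, and Ngly1, which processes the Nfe2l1 protein, was lower by 0.35 ± 0.07. At 15 min this list went both ways. Maff was already higher then, by 2.01 ± 0.04, as were Mafg (0.59), Mafk (0.42) and Nfe2l2 (0.19). Nfe2l1 (-0.14), Ngly1 (-0.32), Vcp (-0.19) and Ufd1 (-0.15) were lower at 15 min. The ubiquitin shuttle gene Rad23b was higher at 4 h, by 0.56 ± 0.04. With the library size alone each of these 4 h values is 0.70 lower, so that among the genes named here Nfe2l1 (-0.15), Pomp (-0.18), Adrm1 (-0.39) and Rad23b (-0.14) turn below 0. The cytosolic ribosomal protein genes are another large set encoding 1 complex. Their 4 h median was 0.10 over 81 genes on the TMM scale, against 0.47 for the 47 proteasome genes. Of the 81, 45 were higher and 18 lower, against 34.9% and 33.7% of all genes. With the library size alone 1 was higher and 69 were lower, against 15.6% and 63.9% of all genes. At 30 min the order was the reverse: 71 of the 81 ribosomal genes were higher, with a median of 0.24, against 14 of 47 and a median of 0.08, and 38 were higher with the library size alone.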

How the data were processed

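Cerebral vessel RNA was converted to cDNA with SMART-Seq v4 and made into Nextera XT libraries, which keep no strand, so reads of overlapping genes on opposite strands cannot be told apart. Per the deposited files, the authors quantified each library with Salmon 1.2.1 on GRCm38.p6, which gives estimated counts per transcript and TPM, levels scaled by effective transcript length to a common total. The authors also deposited a gene table of normalized signal values, Salmon estimates summed to genes by tximport and divided by DESeq2 size factors. That table served only as an alternative.

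Estimated counts were summed to 54119 genes with GENCODE M21 names and rounded to whole numbers, and TPM were summed likewise. Of 140948 transcripts, 1096 did not join, which held 0.482% to 0.850% of fragments. Genes were filtered with filterByExpr of edgeR 4.0.16 (R 4.3.3), scaled by TMM and fitted across all 12 libraries with the group as the only term. The quasi-likelihood test was adjusted by Benjamini-Hochberg over 19150 genes, with a threshold of 0.05. Every adjusted p here is from this test unless another is named, and changes beyond 1.5-fold were tested with glmTreat. CPM are TMM-scaled. The procedure was tested on simulated data. Few genes were changed there, with random signs, so that test does not bear on the composition shift at 4 h.

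The members, the gene lists and the motifs were chosen with earlier results of these data known. Named with values were the highest and the lowest gene of each role, the catalytic subunits, activators, chaperones, genes beyond 1.5-fold and the gene that is no subunit. Any other member was named after its values were seen. Same-numbered libraries of different groups did not deviate together (r from -0.05 to 0.07 over 18 pairs), so groups were not paired. Libraries of a group came from different pools of mice and varied 2.19 to 2.95 times more than counting error. Alternatives were other scalings, no filter, DESeq2 1.42.0, limma 3.58.1 on the deposited gene table with a pseudocount of 1 or 10, a transcript length offset, protein-coding transcripts only, only the groups compared, a replicate block and leaving out each library. Promoter sequences are from RefSeq. The lists of ubiquitin genes and ubiquitin shuttles are not reported here as wholes. The analysis used Python 3.11.15 with pandas 2.3.3, numpy 2.4.6 and matplotlib 3.10.9.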

Additional observations from a re-analysis of the deposited data

Results flagged for a closer look

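For 5 genes the difference from PBS at 4 h went the opposite way to that at an earlier time, with both called. Since both comparisons share the PBS libraries, the difference between them is the direct comparison of the 2 LPS times, tested with edgeR's quasi-likelihood test. The 5 genes were picked because both values were called with opposite signs, so a difference between them was largely fixed by that choice, and its p-value is a description, not separate evidence. Psma2 was lower at 15 min (-0.16) and higher at 4 h (0.84), a difference of 1.00 on the log2 scale (adjusted p = 9.57e-16). Psmd12 went from -0.15 to 0.63, a difference of 0.78 (adjusted p = 3.41e-11). Psmb7 went from -0.17 to 0.43, a difference of 0.59 (adjusted p = 6.39e-11), and Psmd1 from -0.17 to 0.43, a difference of 0.59 (adjusted p = 6.07e-12). Psme2b was lower at 30 min (-0.98) and higher at 4 h (3.84), a difference of 4.82 (adjusted p = 9.43e-19), and its counts are shared with the parent gene by the quantifier's model. With the library size alone the 4 h values were 0.14 for Psma2, -0.07 for Psmd12, -0.28 for Psmb7, -0.28 for Psmd1 and 3.13 for Psme2b, so the change of direction held for Psma2 and Psme2b on that scale.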

How the results depend on the processing

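Scalings move all genes together and so hardly move the distance between the median proteasome gene and the median gene. At 4 h it kept its direction under the other alternatives too, with 0.42 without the filter, 0.51 with limma plus 1, 0.50 with the length offset and 0.44 to 0.49 without single libraries. At 30 min it was 0.07 to 0.10 without single libraries. At 15 min it was -0.036 to -0.0080 without single libraries, 0.0059 and 0.024 with limma and 0.026 with the length offset, so its sign was not stable. The counts depended on the scale. With the library size alone 12 genes were higher and 29 lower at 4 h, 1 and 13 at 30 min, 9 were lower at 15 min, 1 rose and 13 fell from 15 to 30 min, and 12 rose and 25 fell from 30 min to 4 h. This scale leaves out the composition factors. At 15 min, 3 genes were higher with limma plus 1, limma plus 10, the length offset or upper quartile scaling and 2 over protein-coding transcripts, while 8 were lower with DESeq2, 9 with RLE and 11 with upper quartile scaling. At 30 min, 7 and 6 were higher with limma, and 2 were lower with RLE, upper quartile scaling or the length offset. From 15 to 30 min, 7 and 6 rose and 0 and 0 fell with limma, 9 rose over protein-coding transcripts, and 8 rose and 1 fell with the length offset. Beyond 1.5-fold at 30 min, 1 gene passed with the library size alone and 1 without the filter. The cause of these differences was not tested.

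Without single libraries, 4 to 6 genes were higher and 3 to 4 lower at 15 min, 11 to 16 and 1 to 2 at 30 min, 33 to 37 and 5 to 5 at 4 h, 9 to 15 rose and 0 to 3 fell from 15 to 30 min, and 33 to 36 rose and 6 to 6 fell from 30 min to 4 h. Beyond 1.5-fold these were 0 to 0, 0 to 1 and 14 to 16. Over 141 gene values and 12 such fits, 1645 results stayed as they were, 31 lost a call and 16 gained a call. The 1645 include values that were called in neither fit. They also include fits without a library of a group outside the comparison, which could change little. The 1645 is therefore no measure of how many calls held. With the replicate block, 5 were higher and 4 lower at 15 min, 14 and 1 at 30 min, 36 and 5 at 4 h, 11 rose and 3 fell from 15 to 30 min, and 35 and 6 from 30 min to 4 h.

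With the library size alone these genes turned below 0 at 4 h: Psmc3 (-0.43), Psmd4 (-0.17), Psmd2 (-0.28), Psmb1 (-0.58), Psmd3 (-0.21), Psmb6 (-0.46), Psmc5 (-0.39), Psmd12 (-0.070), Psmc1 (-0.69), Psmd6 (-0.18), Psmc6 (-0.14), Psmb5 (-0.58), Psmg1 (-0.44), Psmd13 (-0.58), Psmd1 (-0.28), Psmb7 (-0.28), Psmd14 (-0.36), Psma7 (-0.17), Psmb2 (-0.034), Psmc2 (-0.32), Psmd8 (-0.23), Psmc4 (-0.26), Psma1 (-0.45), Psmd10 (-0.091), Psma4 (-0.092) and Psmf1 (-0.51). At 30 min 25 genes turned below 0, of which 15 were called on neither scale; the 10 called on at least 1 scale were Psmd4 (-0.16), Psmb4 (-0.041), Psmd2 (-0.15), Psmb1 (-0.045), Psma2 (-0.12), Psmc5 (-0.0065), Psmc1 (-0.16), Psme1 (-0.052), Psmc2 (-0.14) and Psme4 (-0.0050). Upper quartile scaling turned Psmb1 (-0.025), Psmc1 (-0.13) and Psmd13 (-0.022) at 4 h, and protein-coding transcripts alone turned Psma3 at 15 min (-0.028). Genes with few fragments, Psmb11 and Psma8 above all, are limited by depth.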
